A study of Mus musculus with 17 samples.

Results

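The tudor domain genes *Tdrd1*, *Tdrd3*, *Tdrd5*, *Tdrd6*, *Tdrd7*, *Tdrd9*, *Tdrd12*, *Rnf17* and *Stk31* were followed through the start of meiosis in WT and *Nat10*-SKO male germ cells. These 9 genes were taken by symbol from the 23282 genes of the deposited table, and all 9 were found there. In leptotene/zygotene spermatocytes, 6 of them were called lower in SKO than in WT (limma, adjusted p under 0.05 and absolute log2 fold change above 1), where 25.8% of all genes tested were, and *Tdrd6* was almost lost, with 8 reads in 3 SKO libraries against 7315 in 2 WT libraries. In pre-leptotene spermatocytes *Tdrd6* alone was called lower, against 5.83% of all genes, and in spermatogonia none was called in either direction, against 6.02%.

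A tudor domain is a small fold that binds methylated arginine or lysine. Many germ cell proteins carry several of them and use them to hold the methylated arginines of PIWI proteins, the Argonaute relatives that are loaded with piRNAs and silence transposons. These tudor proteins collect PIWI proteins, RNA helicases and piRNA precursors in germ granules, the intermitochondrial cement of spermatocytes and the chromatoid body of spermatids. *Tdrd3* is the exception among the genes followed here, since its product is made in most tissues, reads methylated arginine on histones and works with the topoisomerase TOP3B.

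All mice are labelled C57BL/6 (C57BL/6J in the study's methods), and their spermatogenic cells were sorted by FACS on Hoechst dye and propidium iodide into 3 stages, called SPG for spermatogonia, PreL for pre-leptotene and LZ for leptotene/zygotene spermatocytes. The SKO animals carried a floxed *Nat10* allele over a deleted one, and the Stra8-GFPCre knock-in, which acts in germ cells from differentiating spermatogonia onward, removed exons 4 and 5 of the floxed allele, while the WT animals are labelled wild type and no age is given for the sorted cells. Each stage had 3 libraries per genotype, except that LZ had 2 in WT, and each library was made with Smart-seq2, which copies and amplifies polyadenylated RNA. The study's supplement calls the libraries of a group biological replicates, but no label says that they came from separate animals. A p-value thus measures the spread between these libraries, which may be technical.

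The libraries held between 5812380 and 13820953 recovered reads, and the shallowest were the 3 SKO LZ libraries. All levels below are rescaled values, which are the deposited spike-in calibrated counts divided by a size factor computed over all 17 libraries. Log2 fold changes come from limma fits of log2(value + 10) within each comparison, which understate the change of low genes. For each fit the size factors were computed anew over the libraries in it, so the added 10 weighs differently between comparisons. A gene was called at a Benjamini-Hochberg adjusted p under 0.05 with an absolute log2 fold change above 1. *Nat10* itself read between 542 and 823 in the WT libraries and between 184 and 470 in the SKO libraries. Its log2 fold change was -0.87 in SPG (SE 0.24, adjusted p = 0.0326), -1.29 in PreL (SE 0.23, adjusted p = 0.00591) and -1.47 in LZ (SE 0.29, adjusted p = 0.00469).

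The 4 germ cell markers had reads in every group, and their sum was 49906 and 64329 in WT LZ against 86522 to 93080 in SKO LZ, with no overlap. By gene, 0 of these 4 were called in LZ in either direction, with log2 fold changes from -0.14 to 0.90. Among all genes, 25.8% were called lower and 13.4% higher there. Sums of markers of other cells also differed between genotypes. The 9 spermatid markers summed to 13374 to 21859 in the WT PreL libraries but to 226 to 298 in those of SKO, and in LZ to 15197 to 19723 in WT against 209 to 310 in SKO, where *Acrv1* and *Odf1* had no read. The 7 late spermatocyte markers summed to between 61499 and 139781 in WT LZ and between 3232 and 4150 in SKO LZ, and 6 of the 6 tested were called lower. In PreL they summed to 7783 to 22933 in WT and 1824 to 2482 in SKO, and 5 of the 5 tested were called lower. In SPG their sums overlapped (3516 to 4785 in WT, 1203 to 3599 in SKO), while those of the spermatid markers did not (2461 to 6360 in WT, 97.8 to 194 in SKO). Conversely, 7 Leydig markers summed to 527 to 1114 in WT LZ against 2505 to 6649 in SKO LZ, to 133 to 400 against 924 to 9194 in PreL, and to 126 to 335 against 1299 to 4864 in SPG. Macrophage markers (177 to 283 against 1752 to 3158) and peritubular myoid markers (17.5 to 94.9 against 733 to 1434) were higher in SKO SPG, and Sertoli markers (299 to 352 against 443 to 4000) in SKO PreL, without overlap. In LZ the Sertoli sums overlapped, at 1475 and 4989 in WT and 4250 to 5452 in SKO. From PreL to LZ in WT, 5 of the 5 Sertoli markers tested were called higher, where 18.8% of all genes were. The part of these cells in the results below was not tested. In sorted populations of this kind, fewer cells of a type and less RNA per cell cannot be told apart.

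Promoter windows are given for members that were and were not called lower in LZ. RefSeq windows of 300 bases (GRCm38.p6), 250 before and 50 after an annotated start, were matched for 7 of the 9 genes, with 13 starts, and 4 are shown, written 5′ to 3′ along the gene. *Tdrd1* and *Tdrd5* were called lower in SKO LZ, while *Tdrd9* and *Stk31* were not called there. Capitals mark the words CACGTG (E-box), GCAGTT (core of the A-MYB site), TCCCGC (core of the E2F site) and CCTCAG (core of the STRA8 site) on either strand, and the CREM word TGACGT was searched for too.
*Tdrd1*, chr19:56825959-56826258, plus strand: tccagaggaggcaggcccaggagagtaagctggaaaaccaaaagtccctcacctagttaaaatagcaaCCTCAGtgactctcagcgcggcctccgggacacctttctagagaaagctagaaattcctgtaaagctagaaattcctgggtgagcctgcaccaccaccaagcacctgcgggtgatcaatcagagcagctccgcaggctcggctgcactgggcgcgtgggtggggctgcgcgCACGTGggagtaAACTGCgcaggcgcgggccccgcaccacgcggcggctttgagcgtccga
*Tdrd5*, chr1:156303299-156303598, minus strand: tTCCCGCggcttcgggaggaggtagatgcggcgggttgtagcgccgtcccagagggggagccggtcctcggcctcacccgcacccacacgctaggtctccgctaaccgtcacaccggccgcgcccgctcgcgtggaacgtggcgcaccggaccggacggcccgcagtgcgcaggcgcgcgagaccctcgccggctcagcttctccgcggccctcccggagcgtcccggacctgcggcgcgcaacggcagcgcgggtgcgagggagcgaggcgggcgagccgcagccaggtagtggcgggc
*Tdrd9*, chr12:111971309-111971608, plus strand: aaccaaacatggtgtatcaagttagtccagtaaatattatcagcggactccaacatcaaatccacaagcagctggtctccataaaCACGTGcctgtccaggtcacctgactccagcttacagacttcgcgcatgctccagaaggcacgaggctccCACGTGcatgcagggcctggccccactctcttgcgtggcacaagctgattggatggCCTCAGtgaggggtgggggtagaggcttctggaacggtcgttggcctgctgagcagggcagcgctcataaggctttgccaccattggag
*Stk31*, chr6:49395289-49395588, plus strand: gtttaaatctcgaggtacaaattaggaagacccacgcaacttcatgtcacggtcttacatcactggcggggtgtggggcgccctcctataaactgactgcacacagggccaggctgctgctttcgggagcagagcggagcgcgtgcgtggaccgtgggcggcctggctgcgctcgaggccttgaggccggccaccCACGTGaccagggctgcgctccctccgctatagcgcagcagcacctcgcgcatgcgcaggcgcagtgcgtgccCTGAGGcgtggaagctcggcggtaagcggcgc

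With positions counted from 0 at the start, the *Tdrd1* window held an E-box at -11, a GCAGTT on the opposite strand at 1 and a CCTCAG at -182. The *Tdrd9* window held E-boxes at -165 and -95, and that of *Stk31* held 1 at -55. The *Tdrd5* window, with 76.0% G and C against a median of 52.7% over all windows, held none of these but a TCCCGC at -249. That window lies wholly inside the *Tdrd5* gene of the GENCODE annotation, whose 5′ end is at 156303664, so bases upstream of that end were not searched. Counted by gene over all starts, the E-box was found in 3 of 7 genes (*Tdrd1*, *Tdrd9* and *Stk31*), GCAGTT in 2 (*Tdrd1* and *Tdrd7*), TCCCGC in 2 (*Tdrd3* and *Tdrd5*), CCTCAG in 5 and TGACGT in 0. Of all 32851 windows, 7.15% held the E-box, 13.7% GCAGTT, 20.0% TCCCGC, 26.8% CCTCAG and 7.51% TGACGT. These shares are per window, while a gene with several starts had more than 1 window in which to match. The words do not overlap one another in the 4 windows shown, and a match describes letters only.

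Levels were first compared between the genes per kilobase of exon, using the merged exons of GENCODE vM21, which span from 3.24 kb in *Stk31* to 7.06 kb in *Tdrd6*. *Stk31*, which joins a tudor domain to a kinase-like domain, had the highest per-kilobase level in all 6 groups, from 1285 ± 103 (SD, n = 3) in WT SPG to 2888 ± 513 (SD, n = 3) in SKO PreL. *Rnf17*, a RING finger and tudor protein of its own cytoplasmic granule, came second in all 6 groups, from 657 ± 57.9 (SD, n = 3) in WT SPG to 1047 ± 160 (SD, n = 3) in SKO PreL. *Tdrd6* had the lowest mean in every group but WT LZ, where its mean of 883 ± 575 (SD, n = 2) per kilobase passed those of *Tdrd5*, *Tdrd7*, *Tdrd9*, *Tdrd12* and *Tdrd3*. In WT LZ replicate 2 alone it stood at 477, below *Tdrd5* (676), *Tdrd7* (547) and *Tdrd9* (549).

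In WT SPG the order was *Stk31*, *Rnf17*, *Tdrd9*, *Tdrd1*, *Tdrd7*, *Tdrd12*, *Tdrd3*, *Tdrd5* and *Tdrd6*, and the libraries of neighbours overlapped only for *Tdrd7* with *Tdrd12* and for *Tdrd3* with *Tdrd5*. In WT PreL all neighbours from *Tdrd9* downward overlapped. In WT LZ the neighbours from *Rnf17* through *Tdrd1*, *Tdrd6*, *Tdrd5* and *Tdrd7* to *Tdrd9* overlapped, while *Tdrd12* at 456 ± 113 and *Tdrd3* at 184 ± 36.7 (SD, n = 2) lay below, each clear of the one before. In SKO LZ the same 3 genes led, with *Stk31* at 2087 ± 148, *Rnf17* at 670 ± 92.8 and *Tdrd1* at 366 ± 38.4, and *Tdrd6* stood last at 1.52 ± 0.656 (SD, n = 3). *Stk31* made up 32.1% of the summed per-kilobase level of the genes in WT LZ and 50.4% in SKO LZ, and *Tdrd6* made up 10.7% and 0.0367%.

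**Figure D1:**
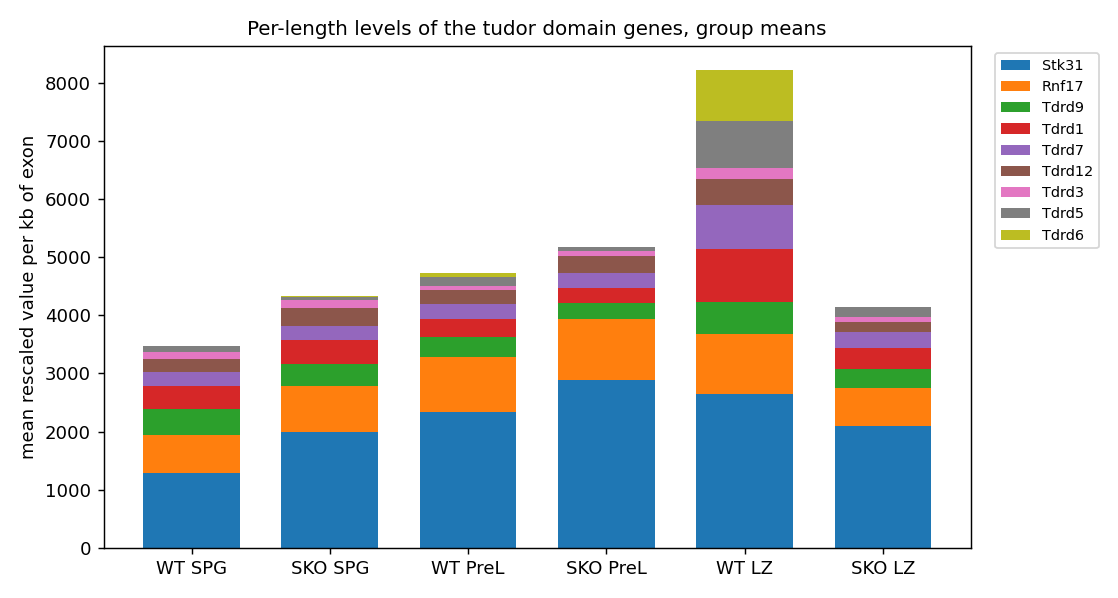
Stacked bars of the mean rescaled value per kilobase of exon (vertical axis) of each tudor domain gene in the 6 groups (2 libraries in WT LZ, 3 in the others). *Stk31* and *Rnf17* form the base of every bar, and *Tdrd6* and *Tdrd5* are broad in WT LZ alone.

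*Tdrd6* encodes a protein with many tudor domains that is needed to build the chromatoid body. The gene lies on chr17:43615335-43630299 (GRCm38, minus strand), with no exon shared with a neighbour in the annotation. Recovered reads were 39, 5 and 71 in WT SPG and 45, 2 and 1 in SKO SPG. They were 120, 355 and 172 in WT PreL and 2, 10 and 3 in SKO PreL. In LZ the WT libraries held 2394 and 4921 reads and the SKO libraries 1, 4 and 3. The genotypes overlapped in SPG and were clear of each other in PreL and LZ.

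As rescaled values, *Tdrd6* read 239, 759 and 376 in WT PreL against 3.77, 17.8 and 6.09 in SKO PreL, and 3367 and 9108 in WT LZ against 5.45, 14.2 and 12.5 in SKO LZ. The WT level thus climbed with stage, while the SKO level stayed near that of a few reads. From the pooled reads, WT exceeded SKO 2.13-fold in SPG (95% interval 1.51 to 3.05), 47.9-fold in PreL (28.8 to 86.1) and 515-fold in LZ (261 to 1194), with exact binomial intervals that cover counting error only, since amplified reads without molecular identifiers are not independent molecules. In SPG, 45 of the 48 SKO reads came from replicate 1. The limma fit gave log2 fold changes of -0.95 in SPG (SE 0.77, adjusted p = 0.480, and from -1.78 without SKO SPG replicate 1 to -0.39 without WT SPG replicate 3), -4.42 in PreL (SE 0.49, adjusted p = 0.000538) and -8.55 in LZ (SE 0.52, adjusted p = 5.17e-05). The LZ value ran from -9.30 to -7.35 over 15 alternatives, the smallest with a pseudocount of 50, and it was called in each.

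*Tdrd5* encodes a protein of germ granules that is needed to silence transposons and to complete spermatid development. It lies on chr1:156255296-156303664 (GRCm38, minus strand), and its exons overlap those of 4930518J20Rik on the opposite strand, so reads of the pair cannot be told apart where strand was not used. Its rescaled values were 388, 377 and 344 in WT SPG against 158, 213 and 215 in SKO SPG. In PreL they were 498, 866 and 352 against 271, 405 and 219. In LZ they were 2542 and 3568 against 795, 609 and 506. The genotypes were clear of each other in SPG and LZ and overlapped in PreL. The log2 fold change was -0.89 in SPG (SE 0.31, adjusted p = 0.0799) and -0.85 in PreL (SE 0.35, adjusted p = 0.117), neither called, and -2.27 in LZ (SE 0.26, adjusted p = 0.000309). On the spike-in scale, which sets RNA per calibrated cell input and moved the median of all genes in SPG to -0.25, the SPG value was -1.14 (adjusted p = 0.0370), where 4.5% of all genes were called lower.

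In PreL, *Tdrd6* was the 1 member called lower of 9, where 5.83% of all 13132 genes tested were called lower, and none was called higher by limma, edgeR or DESeq2. The other 8 lay between -0.85 (*Tdrd5*) and 0.31 (*Tdrd12*), and 2 of the 9 had an unadjusted p under 0.05, as had 4427 of the 13132 genes. On the spike-in scale, where the median of all genes in PreL was 0.73, *Tdrd12* and *Stk31* were called higher at 1.03 each, as were 26.3% of all genes. In SPG 0 of the 9 were called by limma, edgeR or DESeq2, where 6.02% of 12846 genes were called in either direction. An unadjusted p under 0.05 was found for 3341 of those genes and for 3 of the 9 members. *Stk31* was 1 of these 3 members. Its rescaled values were 3965, 4544 and 3971 in WT SPG against 5948, 6806 and 6664 in SKO SPG, with no overlap, and it was higher in SKO by 0.62 on the log2 scale (SE 0.12, adjusted p = 0.00570), short of the fold threshold. Along with it, the summed level of 10 early meiotic markers ran from 69192 to 72054 in WT SPG and from 101636 to 106201 in SKO SPG, and its part in the *Stk31* difference was not tested.

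**Figure D2:**
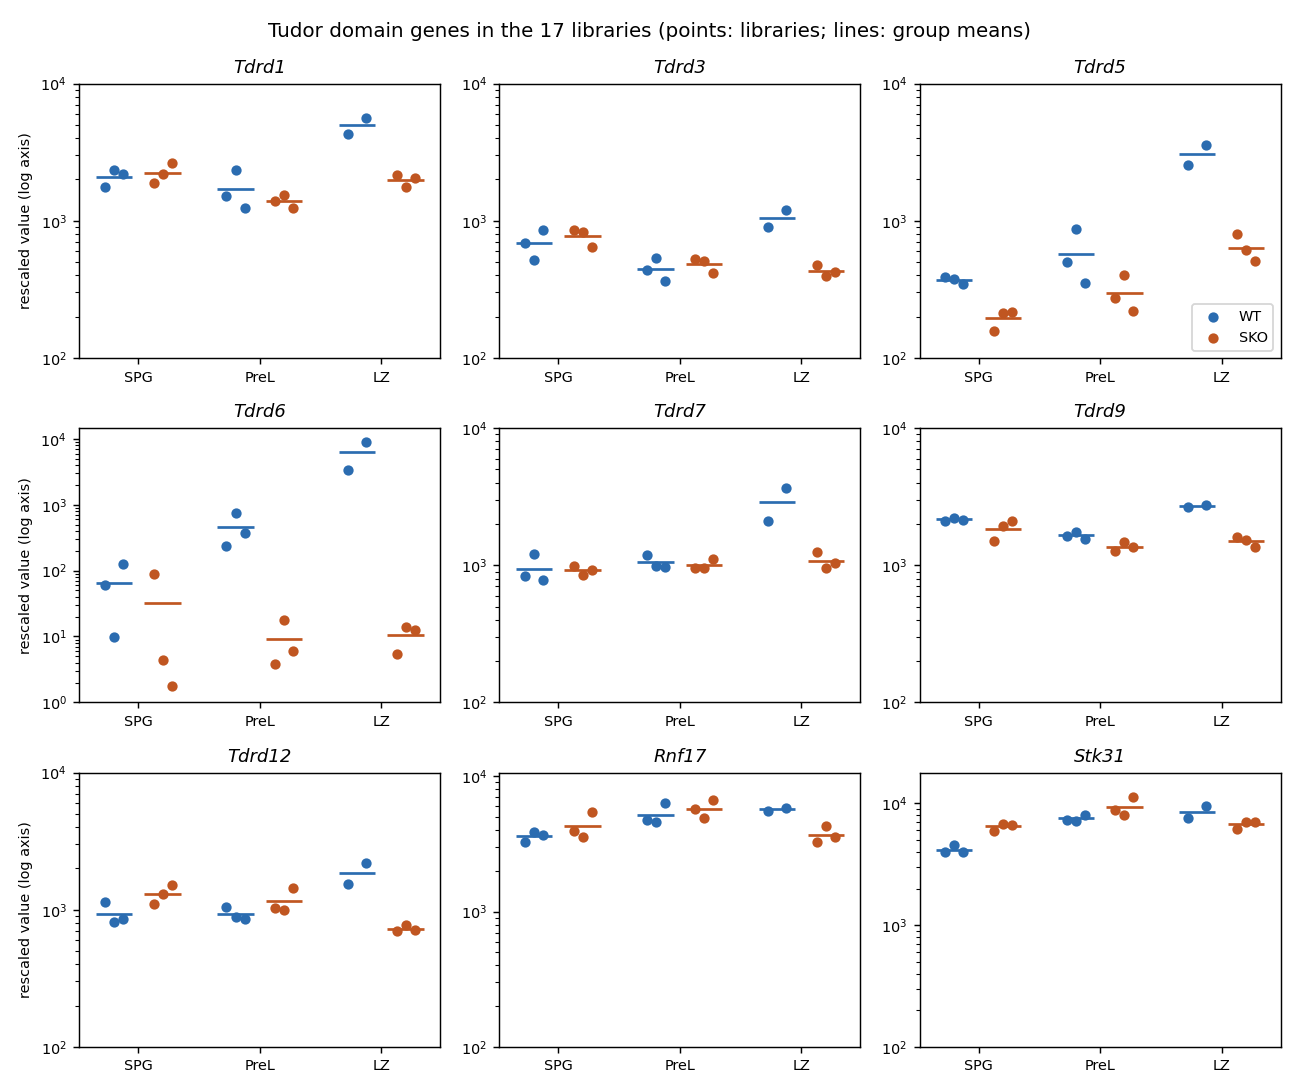
Rescaled values (vertical log axes, which run lower for *Tdrd6*) of the tudor domain genes in each of the 17 libraries, WT in blue and SKO in orange, by stage, with a line at each group mean. The SKO LZ points lie below both WT LZ points for all 9 genes, by the widest margin for *Tdrd6* (5.45 to 14.2 against 3367 and 9108).

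In LZ, 6 of the 9 genes were called lower and none higher by limma, edgeR and DESeq2 alike, where 25.8% of all 13724 genes tested were called lower. Without the fold threshold, 8 of 9 had an adjusted p under 0.05 and a negative change, against 31.1% of all genes. Every SKO library lay below both WT libraries for 9 of 9, against 39.8% of all genes. The median log2 fold change of the members was -1.32 and that of all genes -0.13. The count fell to 5 without WT LZ replicate 3, when *Tdrd7* gave -0.99 (adjusted p = 0.0392).

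Among partners of PIWIL2, *Tdrd1*, a scaffold that joins PIWIL2 to the cement between mitochondria, read 4276 and 5641 in WT LZ against 2157, 1756 and 2060 in SKO LZ. It fell by 1.32 on the log2 scale (SE 0.19, adjusted p = 0.00105). *Tdrd12*, a helicase-like tudor protein of secondary piRNA production, read 1532 and 2186 in WT LZ against 703, 768 and 715 in SKO LZ. These SKO libraries were the lowest of all 17 for *Tdrd12*, and the log2 fold change was -1.34 (SE 0.21, adjusted p = 0.00155).

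*Tdrd7*, a chromatoid body protein also known from the lens of the eye, read 2111 and 3663 in WT LZ against 1247, 949 and 1036 in SKO LZ. The spread between its WT libraries was wide, and its log2 fold change was -1.39 (SE 0.27, adjusted p = 0.00392). *Tdrd3* read 899 and 1194 in WT LZ against 474, 393 and 422 in SKO LZ, a log2 fold change of -1.28 (SE 0.23, adjusted p = 0.00305). In SPG and PreL these 4 genes stayed between -0.24 and 0.46 on the log2 scale, with overlapping genotypes and no call.

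*Tdrd9*, a helicase with a tudor domain that works with PIWIL4, read 2642 and 2754 in WT LZ against 1601, 1533 and 1367 in SKO LZ. Its log2 fold change was -0.86 (SE 0.16, adjusted p = 0.00312). *Rnf17* read 5563 and 5802 in WT LZ against 3273, 4259 and 3536 in SKO LZ, with a log2 fold change of -0.65 (SE 0.16, adjusted p = 0.0134). Both changes passed the p threshold and fell short of the fold threshold. *Stk31* read 7607 and 9500 in WT LZ against 6203, 7063 and 7004 in SKO LZ, and its log2 fold change of -0.35 (SE 0.17, adjusted p = 0.127, 95% interval -0.75 to 0.053) did not pass.

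**Figure D3:**
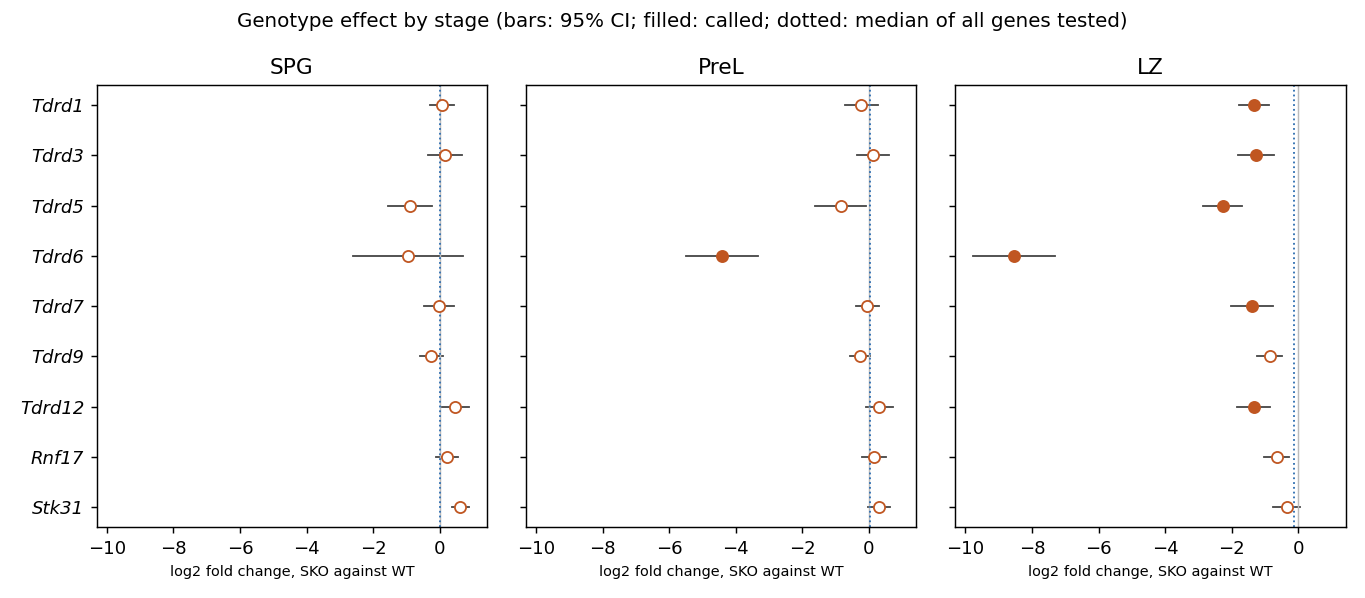
Log2 fold change of SKO against WT (horizontal axis) of each tudor domain gene in SPG, PreL and LZ, with 95% confidence intervals from limma, filled where called, and a dotted line at the median of all genes tested. In LZ all 9 points lie left of the all-gene median of -0.13, with *Tdrd6* at -8.55 and *Stk31* at -0.35.

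The stage steps within each genotype were examined next. From SPG to PreL in WT, *Tdrd6* was the 1 member called higher, where 2.54% of genes were. Its rescaled values were 61.0, 9.71 and 127 in WT SPG against 239, 759 and 376 in WT PreL, a log2 fold change of 2.70 (SE 0.61, adjusted p = 0.0274). This call was lost with edgeR (adjusted p = 0.0582), without the filter on low reads (adjusted p = 0.0938), and without WT SPG replicate 1, WT PreL replicate 2 or WT PreL replicate 4 (adjusted p = 0.0561, 0.105 and 0.0554). *Stk31* also rose in WT, by 0.82 (SE 0.12, adjusted p = 0.00601), under the fold threshold. In SKO, 0 of 9 were called in this step by limma, edgeR or DESeq2, where 2.59% of genes were called in either direction. An unadjusted p under 0.05 was found for 5 members and for 2999 of all 12882 genes tested.

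From PreL to LZ in WT, 5 of 9 were called higher, where 18.8% of genes were. *Tdrd6* rose by 3.59 (SE 0.51, adjusted p = 0.00255) and *Tdrd5* by 2.33 (SE 0.36, adjusted p = 0.00284). *Tdrd1* rose by 1.44, *Tdrd7* by 1.26 and *Tdrd3* by 1.07 on the log2 scale. *Tdrd12* at 0.84 and *Tdrd9* at 0.56 passed the p threshold alone (adjusted p = 0.0264 and 0.0487). *Rnf17* gave -0.0017 (95% interval -0.47 to 0.46) and *Stk31* 0.032 (-0.39 to 0.45), with overlapping libraries. The *Tdrd3* call was lost without WT PreL replicate 1 (adjusted p = 0.0666) or replicate 4 (adjusted p = 0.0671). Without WT LZ replicate 3 the count fell to 2, *Tdrd5* and *Tdrd6*. On the spike-in scale, where the median of all genes rose by 1.86 in this step, all 9 were called higher, as were 79.9% of all genes.

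The same step in SKO gave 1 call of the 8 tested, *Tdrd5*, which rose by 1.06 (SE 0.25, adjusted p = 0.0104), where 10.6% of genes were called higher. This call was lost with a pseudocount of 50 and without SKO PreL replicate 3 or SKO LZ replicate 1, when the change was 0.999, 0.895 and 0.892. *Tdrd6* was not tested here because it had a mean under 10 reads. *Tdrd1* had a change of 0.49 (adjusted p = 0.0182), also under the fold threshold, with no overlap between the groups. *Tdrd12*, *Rnf17* and *Stk31* had changes of -0.68, -0.67 and -0.49 (adjusted p = 0.0181, 0.0118 and 0.0409), likewise under it, and these 3 turned positive on the spike-in scale, where the median of all genes rose by 0.81.

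Set side by side on 1 scale, the SKO LZ and WT PreL libraries overlapped for 5 of 9 genes, *Tdrd1*, *Tdrd3*, *Tdrd5*, *Tdrd7* and *Tdrd9*. *Tdrd6* read 5.45 to 14.2 in SKO LZ and 239 to 759 in WT PreL. *Tdrd12* (703 to 768 against 855 to 1043), *Rnf17* (3273 to 4259 against 4611 to 6293) and *Stk31* (6203 to 7063 against 7244 to 8057) also lay lower in SKO LZ, with no overlap. These 4 of 9 stand beside 28.7% of 12527 genes for which every SKO LZ library lay below every WT PreL library. The ranges are a description of the libraries and were not tested.

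Whether the genotype effect differed between stages was tested with an interaction term in 1 fit of all 17 libraries. Between PreL and SPG, 0 of 9 members differed at an adjusted p under 0.05 by limma, edgeR or DESeq2, where 0.362% of genes did. An unadjusted p under 0.05 was found for 1 member, *Tdrd6*, and for 2054 of all 13530 genes. Between LZ and PreL, the effect was more negative in LZ for 9 of 9, where this held for 23.1% of 13530 genes. The differences ran from -0.57 for *Tdrd9* (adjusted p = 0.0327) to -3.57 for *Tdrd6* (adjusted p = 0.0177), with a member median of -1.31 and an all-gene median of -0.31. *Tdrd6* had few reads in SKO at both stages and little room to fall further, so its difference mainly reflects the rise in WT. *Tdrd12* had the smallest adjusted p, with a difference of -1.62 (SE 0.29, adjusted p = 0.000229). The *Tdrd6* difference did not pass with DESeq2 (adjusted p = 0.120), edgeR (0.174), a pseudocount of 1 (0.123), the replicate block (0.0551) or without WT LZ replicate 3 (0.106). The count of 9 was 8 with DESeq2, 7 with the replicate number as a block, 6 with TMM scaling, 5 with edgeR and 3 without WT LZ replicate 3.

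The late spermatocyte markers differed between libraries of 1 group, and in 3 of the 6 groups *Tdrd6* was highest in the library where they were highest. WT LZ replicate 3 held a marker sum of 139781 against 61499 in replicate 2, and its *Tdrd6* value was 9108 against 3367. WT PreL replicate 2 likewise had the highest marker sum of the PreL libraries, 22933, and their highest *Tdrd6* and *Tdrd5* values, 759 and 866. In SKO SPG the library of replicate 1 had the highest marker sum, 3599 against 1334 and 1203, and a *Tdrd6* value of 90.1 against 4.45 and 1.75. In the remaining 3 groups the highest marker sum and the highest *Tdrd6* value fell in different libraries. In WT SPG they were in replicate 1 (4785) and replicate 3 (127), in SKO PreL in replicate 3 (2482) and replicate 2 (17.8), and in SKO LZ replicate 1 had the highest sum (4150) and the lowest *Tdrd6* value (5.45). The part of late spermatocytes in the *Tdrd6* and *Tdrd5* differences was not tested.

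**Figure D4:**
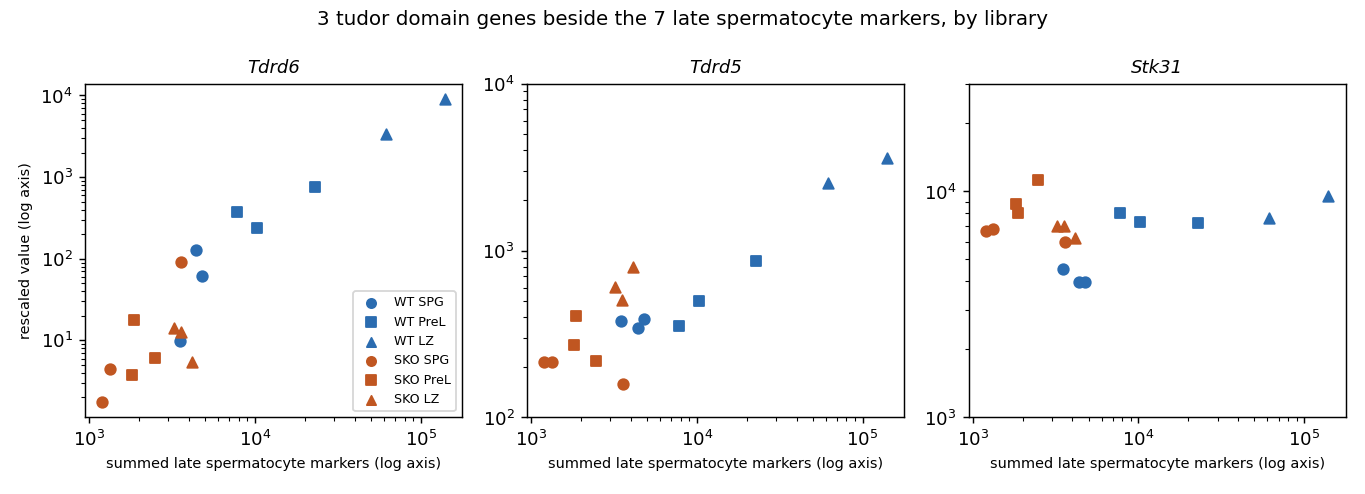
Rescaled values of *Tdrd6*, *Tdrd5* and *Stk31* (vertical log axes) against the summed level of 7 late spermatocyte markers (horizontal log axis) in each of the 17 libraries, WT in blue and SKO in orange, with circles for SPG, squares for PreL and triangles for LZ. *Tdrd6* spans from 1.75 to 9108, while *Stk31* stays between 3965 and 11208.

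Likeness of pattern was described by Pearson's r of log2(rescaled value + 10) over the 17 libraries, among 8657 other genes that averaged 100 reads or more. The points share stage and genotype, so r is given with no test. *Tdrd6* was most like *Abcc12* (r = 0.992), *Zmynd10* (r = 0.990) and 1700010B08Rik (r = 0.987). *Tdrd5* was most like *Rangrf* (r = 0.970), *Ankrd45* (r = 0.961) and *Pdha2* (r = 0.951), the last a testis form of a pyruvate dehydrogenase subunit. *Tdrd7* was most like *Uspl1* (r = 0.950), *D1Pas1* (r = 0.948), a testis DEAD-box helicase, and *Dynlt1b* (r = 0.939).

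Among the remaining members, *Stk31* was most like *Rbpms2* (r = 0.964), *Sycp2* (r = 0.926), a protein of the meiotic chromosome axis, and *Myo9a* (r = 0.919). *Rnf17* was most like *Ypel5* (r = 0.877), *Dopey1* (r = 0.876) and *Eps15* (r = 0.860). *Tdrd9* was most like *Drap1* (r = 0.961), *Map2k5* (r = 0.889) and *Srrt* (r = 0.873). *Tdrd12* was most like *Polr2a* (r = 0.940), *Alkbh3* (r = 0.936) and *Carkd* (r = 0.928), *Tdrd1* like *Fbxw5* (r = 0.922), *Tbcel* (r = 0.915) and *Wdfy3* (r = 0.912), and *Tdrd3* like 2210021J22Rik (r = 0.916), *Ash2l* (r = 0.890) and 2510006D16Rik (r = 0.889). Among the members themselves, r was 0.835 for *Tdrd5* with *Tdrd7*, 0.771 for *Rnf17* with *Stk31* and -0.340 for *Tdrd9* with *Stk31*.

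The partners of these proteins in germ granules were read from a list of 17 genes, of which 16 could be tested in each genotype comparison. In LZ, 5 of 16 were called lower, near the 25.8% of all genes, and 0 higher by limma. An unadjusted p under 0.05 came with a negative change for 9 and with a positive one for 0, beside 7897 of all 13724 genes in either direction. The list median was -0.53 against -0.13 over all genes. *Piwil1*, the PIWI protein of late spermatocytes and spermatids, fell by 4.82 (SE 0.30, adjusted p = 5.18e-05), and *Ddx25*, a helicase of the chromatoid body, fell by 3.06 (SE 0.29, adjusted p = 0.000152). *Gtsf1* and *Mael*, both needed for transposon silencing, and *Pld6*, which acts in piRNA production at the mitochondrial surface, gave -1.28, -1.24 and -1.02. Of the others, *Ddx4*, the germ granule helicase, gave -0.14 (adjusted p = 0.586) and *Piwil2* gave -0.33 (adjusted p = 0.0921).

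Before LZ, *Piwil1* was the 1 of 16 partners called lower in PreL (-3.85, SE 0.58, adjusted p = 0.00276), near the 5.83% of all genes. It was also the 1 of 16 called in SPG (-1.90, SE 0.50, adjusted p = 0.0265), near the 6.02% of all genes called there in either direction. At either stage limma called 0 partners higher, with 3 in SPG and 0 in PreL at an unadjusted p under 0.05 and a positive change. In either direction, 3341 of 12846 genes in SPG and 4427 of 13132 in PreL had such a p. In the WT step from PreL to LZ, 6 of 16 partners were called higher, against 18.8% of all genes, with *Piwil1* at 2.39, *Pld6* at 2.11 and *Ddx25* at 1.98, and 1 was called lower, *Tex15* at -1.04, against 7.8% of all genes.

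Of 19 other genes with a tudor domain, 18 could be tested in LZ, and 3 were called lower and 1 higher, against 25.8% and 13.4% of all genes, with a list median of 0.21. The lower ones were *Phf1* (-2.33), a Polycomb-associated protein, *Sgf29* (-1.52), a reader of histone methylation listed as Ccdc101, and *Kdm4b* (-1.23), a histone demethylase. The related demethylase *Kdm4a* was higher by 2.14. In SPG *Uhrf1*, a maintenance factor of DNA methylation, was the 1 of these called (-1.21, adjusted p = 0.000674), where 6.02% of all genes were called in either direction. In PreL limma called 0, with 3 at an unadjusted p under 0.05, beside 4427 of 13132 genes. *Tdrkh*, the tudor protein that tethers PIWI proteins to mitochondria and is in the partner list too, gave -0.25 (adjusted p = 0.257).

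**Figure D5:**
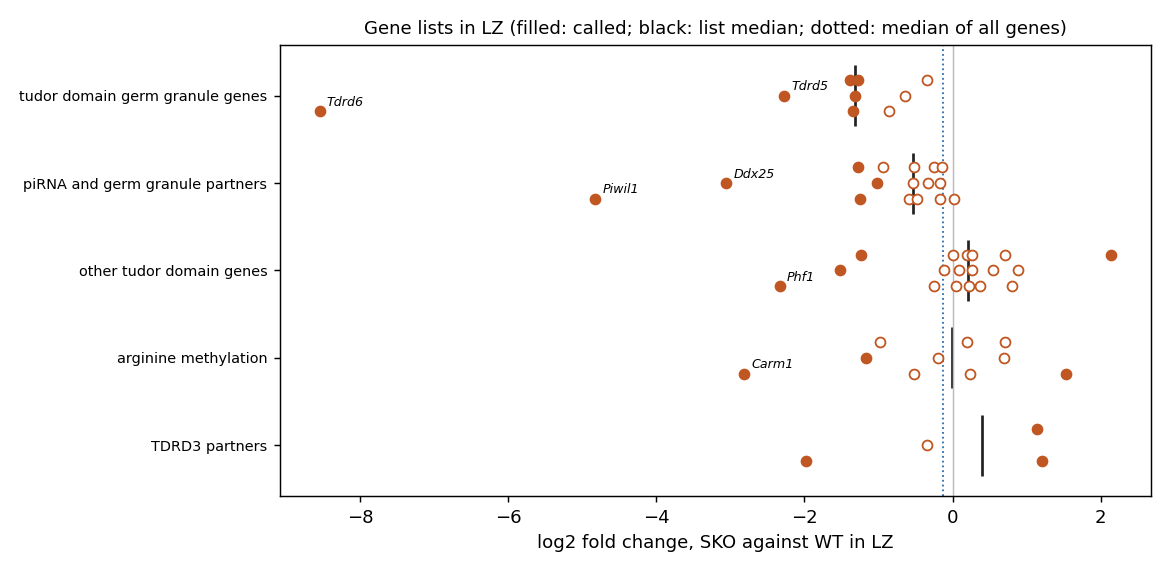
Log2 fold change of SKO against WT in LZ (horizontal axis) for the genes tested in 5 lists, filled where called, with a black bar at each list's median and a dotted line at the all-gene median of -0.13. The tudor domain germ granule genes have a median of -1.32, their partners -0.53 and the other tudor domain genes 0.21.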

How the data were processed

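The deposited values are signal values: the authors trimmed the reads, mapped them to mm10, counted reads with 1 mapped place by HTSeq 0.11.2 and scaled each library's counts by ERCC spike-in RNA and by how many cells went in. The submitters' processing notes also name TopHat2 2.1.1, Cufflinks 2.2.1, DESeq2 and mm9. Dividing by a library's smallest value gave whole reads for 100% of values (tolerance 0.001). Whether counting used strand is not given in the sources used here.

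For each comparison, median-of-ratios size factors removed differences in scale, genes averaging 10 or more reads were kept, and limma 3.58.1 (R 4.3.3) tested log2(value + 10) (mean-variance trend, Benjamini-Hochberg over all genes). limma was used because the values are calibrated and not reads. edgeR 4.0.16 and DESeq2 1.42.0 on the recovered reads, other scalings, pseudocounts, filters, a replicate block and left-out libraries were alternatives. Some of the fits were also run on simulated counts with the same spread for all genes, and changes were set only in genes with ample reads. Such runs do not bear on genes with few reads.

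The members and lists were chosen with earlier results of these data known. The text names the 9 members, *Nat10*, list genes, markers and the 3 genes most like each member. Older symbols were matched through RefSeq. In no group did 2 libraries agree within sampling noise.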

Additional observations from a re-analysis of the deposited data

Results flagged for a closer look

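For each of the 9 tudor domain genes, the difference between SKO and WT was more negative in LZ than in PreL by the interaction term of the limma fit of all 17 libraries. On the log2 scale this difference was -3.57 for *Tdrd6* (not past the threshold with edgeR, DESeq2, a pseudocount of 1 or the replicate block, or without WT LZ replicate 3), -1.62 for *Tdrd12*, -1.39 for *Tdrd5*, -1.38 for *Tdrd3*, -1.31 for *Tdrd7*, -1.06 for *Tdrd1*, -0.78 for *Rnf17*, -0.63 for *Stk31* and -0.57 for *Tdrd9*. Of 20 alternatives, the difference passed under 12 for *Tdrd9*, 15 for *Tdrd6*, 16 for *Tdrd5*, 17 each for *Rnf17* and *Stk31*, and 19 for *Tdrd1*. *Tdrd6* had few reads in SKO at both stages, so its difference mainly reflects the rise in WT. The median over all genes was -0.31. *Tdrd3*, *Tdrd7* and *Tdrd12* passed under every alternative tried, leaving out WT LZ replicate 3 included.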

How the results depend on the processing

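In LZ, 6 of the tudor domain genes were lower under every other scaling, pseudocount, filter and tool and with the replicate block, 8 without a fold threshold, and 5 to 6 when 1 library was left out. The lower *Tdrd6* in PreL held under all alternatives. Without a fold threshold, the count higher in SPG was 1 and the counts higher from SPG to PreL in WT 2, lower from SPG to PreL in SKO 1, and lower and higher from PreL to LZ in SKO 3 and 2. On the spike-in scale, 1 gene was lower in SPG, 2 were higher in PreL, 9 were higher from PreL to LZ in WT, 4 from SPG to PreL in SKO (43.9% of all genes) and 2 from PreL to LZ in SKO (35.3%), and the genotype effect differed between SPG and PreL for 1 gene downward (1.09%) and 6 upward (43.9%), while the median of all genes moved to -0.25 (SPG), 0.73 (PreL), -0.25 (LZ), 1.86 (WT, PreL to LZ), 1.01 (SKO, SPG to PreL) and 0.81 (SKO, PreL to LZ). Signs turned on that scale in SPG for *Tdrd1* (-0.20), *Tdrd3* (-0.10) and *Rnf17* (-0.052), in PreL for *Tdrd1* (0.48), *Tdrd7* (0.67) and *Tdrd9* (0.46), from PreL to LZ in WT for *Rnf17* (1.83) and in SKO for *Tdrd3* (0.64), *Tdrd12* (0.17), *Rnf17* (0.18) and *Stk31* (0.36). Of all genes called in PreL, 14.5% were lower on that scale and 52.3% on the rescaled one.

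The count from SPG to PreL in WT was 0 without the filter, 0 with edgeR and 0 to 1 with 1 library left out. That from PreL to LZ was 2 to 6 in WT with 1 left out, and in SKO 0 with a pseudocount of 50 and 0 to 1 with 1 left out. The stronger effect in LZ than in PreL held for 5 genes with edgeR and for 3 to 9 with 1 left out. *Rnf17* from PreL to LZ in WT was 0.14 in 1 fit of all libraries. With 1 library left out, signs turned for genes near 0 that were not called: in SPG *Tdrd1* (-0.059 to 0.19), *Tdrd3* (-0.034 to 0.33) and *Tdrd7* (-0.14 to 0.15), in PreL *Tdrd1* (-0.45 to 0.0092), *Tdrd3* (-0.0083 to 0.26) and *Tdrd7* (-0.11 to 0.029), and from PreL to LZ in WT *Rnf17* (-0.10 to 0.10) and *Stk31* (-0.12 to 0.17) and in SKO *Tdrd7* (-0.050 to 0.15). The cause of these changes was not tested.

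Same-numbered libraries did not deviate together (r from -0.19 to 0.13), so the numbers were not taken as pairs. With the replicate block, the count in LZ was 6 and that of the stronger effect in LZ 7, and *Tdrd7* in SPG turned to 0.15. The block could not be fitted from PreL to LZ in WT, where the groups share 1 number. *Tdrd6* was not tested from PreL to LZ in SKO, where its reads were too few.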

Other observations

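Tudor domains bind methylated arginine, and the enzymes that make it, with the PRMT5 cofactors *Wdr77* and *Clns1a*, were read beside them in a list of 10 genes, all of them tested. In LZ, 2 were called lower and 1 higher, near the all-gene shares of 25.8% and 13.4%, with a list median of -0.0046 against -0.13 over all genes. *Carm1* fell by 2.82 (SE 0.41, adjusted p = 0.00108) and *Prmt7* by 1.17 (SE 0.19, adjusted p = 0.00165), and *Prmt1*, the main arginine methyltransferase of most cells, was higher by 1.53 (SE 0.45, adjusted p = 0.0250). *Prmt5*, which methylates PIWI proteins, gave -0.20 (SE 0.18, adjusted p = 0.395). From PreL to LZ in WT, *Prmt2* was the 1 of the 10 called, higher by 2.63, where 18.8% of all genes were called higher and 7.8% lower.

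Of 4 genes whose products work with TDRD3, *Top3b*, a topoisomerase that acts on DNA and RNA, was called lower in SKO LZ, with a log2 fold change of -1.98 (adjusted p = 0.000665), next to *Tdrd3* itself at -1.28. The RNA-binding proteins *Fmr1* and *Fxr2* were called higher there, by 1.14 (adjusted p = 0.0128) and 1.21 (adjusted p = 0.00649), while *Fxr1* gave -0.35 (adjusted p = 0.224). Of all genes tested in LZ, 25.8% were called lower and 13.4% higher, and the list median was 0.40. No call was made among them in SPG or PreL by limma, where 1 (*Fmr1* in PreL) had an unadjusted p under 0.05 and the log2 fold changes lay between 0.025 and 0.22 and between -0.28 and 0.46. Of all 13132 genes tested in PreL, 4427 had an unadjusted p under 0.05.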
